A study of Mus musculus with 6 samples.

Results

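Claudins are the membrane proteins that form the strands of the tight junction, the seal that runs around the upper end of epithelial cells. The genes described here are the 8 claudins Cldn1, Cldn3, Cldn4, Cldn7, Cldn8, Cldn10, Cldn12 and Cldn23, together with occludin (Ocln), a second kind of strand protein, and Tjp1, which encodes ZO-1, the scaffold beneath the strands. They were chosen by mouse gene symbol, which picked 10 of the 50600 gene identifiers in the files. All 10 passed the filter on low counts and were among the 16938 genes tested.

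RNA was measured in primary cortical thymic epithelial cells (cTECs), the epithelial cells of the outer thymus that support the early stages of T cell development. The knockout group (KO) was the strain B6.B6CB-Psmb11tm1Smta with genotype Psmb11-/-, and the wild-type group (WT) had the same strain name with genotype Psmb11+/+. Psmb11 encodes a catalytic proteasome subunit made in cTECs and the labels name no Cre or conditional allele. All mice were 8 to 10 weeks old, each group had 3 libraries (replicates A to C) of polyadenylated RNA from the thymus, and the comparison asks which genes differ when Psmb11 is missing. The labels do not describe how the cells were sorted. They also do not state that the 3 replicates came from separate mice, so p-values measure only the spread between these libraries, which may be technical.

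In a tight junction, the extracellular loops of claudins on neighbouring cells meet, and the mix of claudins sets whether the gap between cells is sealed or lets chosen ions pass. Most claudins end in a short tail that binds the ZO scaffolds, which tie the strands to the actin cytoskeleton. In the thymus, Cldn3 and Cldn4 are best known as surface marks of the medullary epithelial lineage in the embryo. Cortical cells form an open meshwork and not a closed sheet.

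The genes fell into 6 that were higher in KO and 4 that were not called, and their promoters were searched for 7 short motifs. One of these, the E-box CAGGTG, searched on both strands so that it also reads CACCTG, is the letter pattern recognised by the Snail and Zeb family of repressors of epithelial genes. Promoter windows of 300 bases, from 250 bases before to 50 after a RefSeq transcript start, came from RefSeq on build GRCm38.p6 and were at hand for 8 of the 10 members (13 windows). Cldn8 and Cldn23 had no entry. The windows of Cldn3, Cldn4, Cldn7 and Ocln that hold the element are printed 5′ to 3′ in the orientation of the gene. The E-box is in capitals. Cldn10, which was called higher in KO, did not hold the E-box in its windows. The window of Cldn1, a member that was not called, is shown beside the printed ones as another without it. Their positions are chr5:134985964-134986263 on the plus strand for Cldn3, chr5:134946885-134947184 on the minus strand for Cldn4, chr11:69965171-69965470 on the plus strand for Cldn7, chr13:100552449-100552748 on the minus strand for Ocln and chr16:26371790-26372089 on the minus strand for Cldn1.
Cldn3: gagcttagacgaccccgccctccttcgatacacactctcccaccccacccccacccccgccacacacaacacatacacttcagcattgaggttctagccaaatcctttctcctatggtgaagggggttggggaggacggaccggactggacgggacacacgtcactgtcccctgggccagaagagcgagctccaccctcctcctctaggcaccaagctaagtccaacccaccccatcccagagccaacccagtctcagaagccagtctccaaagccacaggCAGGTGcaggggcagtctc
Cldn4: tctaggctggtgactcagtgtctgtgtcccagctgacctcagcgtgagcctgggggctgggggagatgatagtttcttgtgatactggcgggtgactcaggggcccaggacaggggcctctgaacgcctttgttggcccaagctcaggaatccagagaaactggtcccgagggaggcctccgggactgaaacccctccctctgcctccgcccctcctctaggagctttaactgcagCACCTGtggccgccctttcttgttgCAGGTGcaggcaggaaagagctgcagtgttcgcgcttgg
Cldn7: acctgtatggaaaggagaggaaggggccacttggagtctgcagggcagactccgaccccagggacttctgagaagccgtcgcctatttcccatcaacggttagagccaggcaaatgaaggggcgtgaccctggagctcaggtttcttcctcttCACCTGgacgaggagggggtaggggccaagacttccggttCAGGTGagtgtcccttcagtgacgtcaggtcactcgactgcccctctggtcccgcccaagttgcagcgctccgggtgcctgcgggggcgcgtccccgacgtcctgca
Ocln: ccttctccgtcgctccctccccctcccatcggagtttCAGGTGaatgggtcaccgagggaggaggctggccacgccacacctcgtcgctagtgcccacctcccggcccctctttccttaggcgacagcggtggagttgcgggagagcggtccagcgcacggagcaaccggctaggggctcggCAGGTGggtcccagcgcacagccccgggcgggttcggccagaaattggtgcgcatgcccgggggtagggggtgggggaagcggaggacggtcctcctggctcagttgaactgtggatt
Cldn1: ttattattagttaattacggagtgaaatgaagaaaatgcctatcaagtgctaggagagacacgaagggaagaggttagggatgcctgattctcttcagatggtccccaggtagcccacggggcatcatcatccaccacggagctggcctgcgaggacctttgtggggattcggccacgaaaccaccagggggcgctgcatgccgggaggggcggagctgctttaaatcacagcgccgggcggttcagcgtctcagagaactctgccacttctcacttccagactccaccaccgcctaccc

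Counting the first transcribed base as position 1, with no position 0, the leftmost base of the E-box lay at position 32 in Cldn3, at -14 and 12 in Cldn4, at -97 and -57 in the printed window of Cldn7 and at -213 and -68 in the printed window of Ocln. A further window of Ocln overlaps the printed one, and the E-box at its position 8 is the same site as that at -213. A further window of Cldn7, around the start site at 69964779, did not hold the E-box. Of the 5 GENCODE transcripts of Cldn7, 1 begins exactly at that site. At 69965421, the start site of the printed window, 0 of them begin. The windows of Cldn1, Cldn10, Cldn12 and Tjp1 did not hold these letters, and of these members Cldn10 was called higher in KO. The E-box was thus in 5 of the 13 member windows, and in 20.2% of all 32851 RefSeq windows of the same length. The 5 include both Ocln windows, which share a site. The AP-1 motif TGANTCA (both strands) was found among the members in the Cldn4 window only, at -240 and -158, and in 7.81% of all windows. The motif AACCGGTT of the Grainyhead-like factors, activators of epithelial junction genes, was in no member window and in 0.146% of all windows. The GC box GGGCGG of Sp and Klf factors was in 10 of the 13 windows and in all 8 members that have a window, called or not, and in 35.7% of all windows. The Ets motif CGGAAGT was in windows of Cldn7 and Cldn12 (6.42% of all windows), the Foxn1 motif GACGC in windows of Cldn1, Cldn7 and Cldn12 (27.2%), and the TATA box TATAAA in none (13.6%), all searched on both strands. These matches describe letters in a window and not binding.

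Between 34265035 and 36713388 reads were counted to genes per KO library, and between 34660349 and 39224292 per WT library. The targeted gene Psmb11 was down to 67, 36 and 41 counts in the KO libraries from 8293, 9297 and 10027 in the WT libraries, a 189-fold lower level (edgeR adjusted p = 1.03e-13) and low in every library labelled KO. Levels of 1 gene are given as CPM, the reads of a gene scaled for library depth with TMM factors. Where 3 values stand in a row, they are replicates A, B and C in that order, and a pair of values joined by "against" gives KO first and WT second. A gene was called at an adjusted p below 0.05 in the edgeR quasi-likelihood test, and log2 fold changes are KO over WT with an approximate standard error (SE) derived from the test. The cortical markers Ctsl and Krt18 were high in every library, at 2751 ± 175 against 3532 ± 147 CPM for Ctsl and 1605 ± 28.5 against 2098 ± 55.2 CPM for Krt18 (SD, n = 3 each). The medullary markers Krt5 and Ccl21a were also well expressed in libraries labelled cTEC, at 3224 ± 57.2 against 2481 ± 149 CPM for Krt5 and 1367 ± 174 against 1124 ± 117 CPM for Ccl21a.

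Cldn3, Cldn4, Cldn7, Cldn10, Cldn23 and Ocln rose in KO, and Cldn1, Cldn8, Cldn12 and Tjp1 were not called. With edgeR none of the 10 had a negative log2 fold change, and with DESeq2 and limma none was called lower. The 6 of 10 called higher compare with all genes tested, of which 12.3% were called higher and 10.7% lower. The called rise was at least 2-fold in 5 of the 10 members, compared with 2.99% of all genes. In 7 members every KO library lay above every WT library, which was so for 19.2% of all genes. The median log2 fold change was 0.89 over the members and -0.00 over all genes tested. In bulk RNA, a different number of cells that make a transcript and a different amount of it per cell cannot be told apart.

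**Figure D1:**
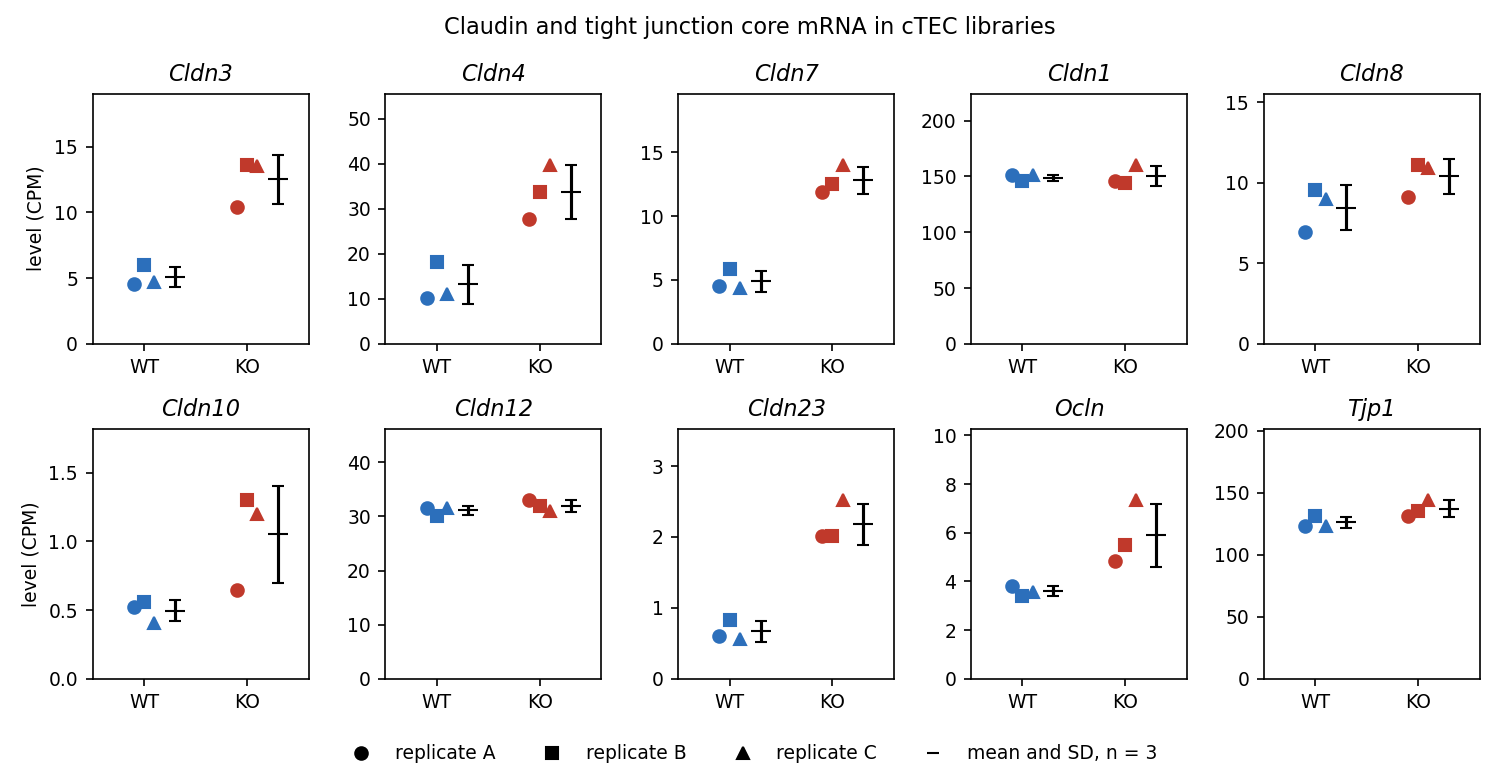
Level of each member in CPM (linear axis from 0, with its own scale in each panel) in the 3 KO and 3 WT libraries, with 1 symbol per library and a bar for the mean and SD. Points of the 2 genotypes are apart for Cldn3, Cldn4, Cldn7, Cldn23 and Ocln, narrowly apart for Cldn10 and Tjp1, and intermixed for Cldn1, Cldn8 and Cldn12.

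Cldn7, Cldn4 and Cldn3 rose by similar folds, and all of them are claudins of simple epithelia that are counted among the sealing kind. Cldn7, which binds the adhesion protein EpCAM, lies at chr11:69964779-69967885 on the plus strand (GRCm38). It had 11.9, 12.5 and 14.0 CPM in the KO libraries against 4.50, 5.85 and 4.38 in the WT libraries. The lowest KO library was 2.03 times the highest WT library, and the groups did not overlap. Its level was 2.60-fold higher in KO (log2 fold change 1.38, SE 0.12, edgeR adjusted p = 1.58e-05), and it stood at rank 94 by p among all genes tested.

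Cldn4, a claudin that also serves as a receptor for a bacterial enterotoxin, lies at chr5:134945119-134946934 on the minus strand. Its level was 27.8, 33.7 and 39.7 CPM in the KO libraries against 10.2, 18.1 and 11.1 in the WT libraries. The WT libraries were unequal, with replicate B standing above A and C, and all were below the KO libraries. Cldn4 was 2.56-fold higher in KO (log2 fold change 1.36, SE 0.18, edgeR adjusted p = 2.02e-04).

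Cldn3, also an enterotoxin receptor, lies at chr5:134986214-134987472 on the plus strand and overlaps the gene Wbscr25 on the opposite strand. The deposited stranded counts tell these strands apart. It had 10.4, 13.6 and 13.5 CPM in the KO libraries against 4.53, 5.99 and 4.71 in the WT libraries, with no overlap between groups. The level was 2.46-fold higher in KO (log2 fold change 1.30, SE 0.14, edgeR adjusted p = 4.97e-05). Cldn3, Cldn4 and Cldn7 were called under each of the 17 alternatives run, with log2 fold changes of 1.23 to 1.43, 1.21 to 1.66 and 1.12 to 1.52.

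Cldn23, a claudin of barrier epithelia, had the largest fold change of the 10 members with edgeR and a low level. At chr8:35824712-35826559 on the minus strand, it had 75, 74 and 86 counts in the KO libraries against 21, 30 and 22 in the WT libraries. In CPM these were 2.02, 2.01 and 2.52 against 0.610, 0.836 and 0.563. The KO libraries were close to each other and the lowest was 2.40 times the highest WT library. Cldn23 was 3.25-fold higher in KO (log2 fold change 1.70, SE 0.24, edgeR adjusted p = 3.70e-04) and was called under each of the 16 alternatives in which it was tested. Its log2 fold change ran from 0.89 to 1.89 over these. The lowest value came with limma on log2(TPM + 1), where Cldn3, Cldn4 and Cldn7 had larger changes than Cldn23.

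Cldn10, a claudin whose variants form ion-selective pores, was the member with the fewest reads. It lies at chr14:118787908-118875489 on the plus strand and had 24, 48 and 41 counts in the KO libraries against 18, 20 and 16 in the WT libraries. KO replicate A, at 0.647 CPM, was close to the WT libraries, which reached 0.557 CPM, while KO replicates B and C had 1.30 and 1.2 CPM. The fitted level was 2.11-fold higher in KO (log2 fold change 1.08, SE 0.34, edgeR adjusted p = 0.0367). This call was lost without any library other than KO replicate A, with adjusted p of 0.130 without KO replicate B, 0.101 without KO C, 0.0790 without WT A, 0.0776 without WT B and 0.126 without WT C.

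Cldn1, the claudin whose absence opens the water barrier of the skin, had the highest level per length of the members and was not called. It lies at chr16:26356642-26371841 on the minus strand and had 146, 144 and 160.3 CPM in the KO libraries against 151, 146 and 151 in the WT libraries. The KO libraries spanned the WT libraries on both sides. The log2 fold change was 0.01 with an SE of 0.04 (edgeR adjusted p = 0.926), and its sign turned without KO replicate C or without WT replicate B.

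Cldn12, a claudin without the usual tail that binds ZO scaffolds, was not called either. It lies at chr5:5489537-5514958 on the minus strand, far along the chromosome from Cldn3 and Cldn4. Its levels were 33.0, 31.9 and 30.9 CPM in the KO libraries against 31.6, 30.1 and 31.6 in the WT libraries, and the groups overlapped. The log2 fold change was 0.04 with an SE of 0.05 (edgeR adjusted p = 0.625).

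Cldn8, a claudin best known from the distal kidney tubule where it works with Cldn4, lies at chr16:88560828-88563183 on the minus strand. It had 9.11, 11.1 and 10.9 CPM in the KO libraries against 6.91, 9.53 and 8.96 in the WT libraries. KO replicate A lay within the WT range. The log2 fold change of 0.29 (SE 0.13) was not called (edgeR adjusted p = 0.123).

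**Figure D2:**
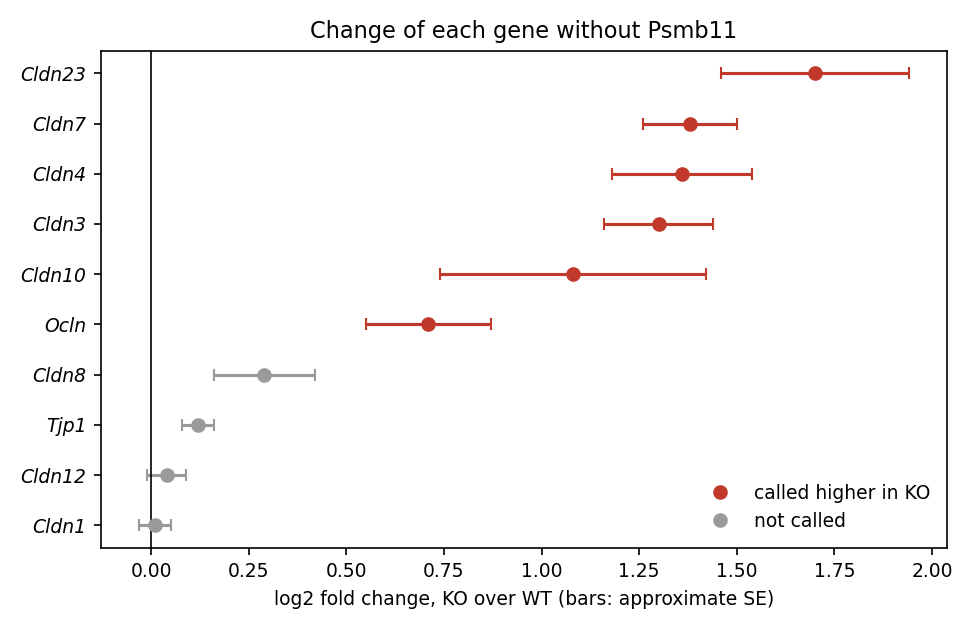
Log2 fold change of each member, KO over WT, with bars for the approximate SE; red marks members called higher in KO by edgeR and grey those not called. Cldn23 has the highest value, 1.70, while Cldn1, Cldn12 and Tjp1 lie close to 0.

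Occludin and ZO-1 stood on different sides of the threshold. Ocln, whose protein joins the claudin strands and helps organise meeting points of cells, lies at chr13:100496507-100552718 on the minus strand. It had 4.85, 5.48 and 7.34 CPM in the KO libraries against 3.83, 3.40 and 3.58 in the WT libraries. The KO libraries lay above the WT libraries and were more spread out than them. Ocln was 1.63-fold higher in KO (log2 fold change 0.71, SE 0.16, edgeR adjusted p = 0.00715). The call was lost with limma, at an adjusted p of 0.0878 on log2(TPM + 0.1) and 0.0782 on log2(TPM + 1).

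Tjp1, at chr7:65296165-65527781 on the minus strand, had 131, 135 and 144 CPM in the KO libraries against 123, 131 and 123 in the WT libraries. KO replicate A and WT replicate B were equal at the precision printed, with KO the higher by less than that, and the other libraries fell on their own group's side. The log2 fold change of 0.12 (SE 0.04) was not called (edgeR adjusted p = 0.0655). It passed the threshold in 4 alternatives, with adjusted p of 0.0304 among genes averaging 5 CPM or more, 0.0471 in a robust fit, 0.0404 with upper quartile scaling and 0.0351 without KO replicate A. The gene overlaps the predicted genes Gm44794 and Gm44792 on its own strand. A few of its reads may thus be left out as matching several genes, or be counted to these.

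Levels of different genes were compared as TPM, which is scaled for transcript length. In WT the order was Cldn1 at 84.2 TPM, Tjp1 at 33.2, Cldn12 at 18.5, Cldn4 at 13.8, Cldn7 at 8.36, Cldn3 at 8.13, Cldn8 at 6.61, Ocln at 2.35, Cldn23 at 0.800 and Cldn10 at 0.567 TPM. Neighbours in this order whose WT libraries overlapped were Cldn12 and Cldn4, Cldn7 and Cldn3, Cldn3 and Cldn8, and Cldn23 and Cldn10. In KO, Cldn1 stayed first at 86.6 TPM, and Cldn4 moved up to 36.1 TPM, where its libraries overlapped those of Tjp1 at 37.1 TPM. Cldn3 at 20.6, Cldn12 at 20.2 and Cldn7 at 19.2 TPM then overlapped in turn, followed by Cldn8 at 8.38, Ocln at 3.70, Cldn23 at 2.32 and Cldn10 at 0.970 TPM.

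The make-up of the claudin and junction core transcripts was set out as each member's share of their summed TPM. Cldn1 made 47.8% of the summed TPM of the 10 members in WT (44.7% to 49.7% over libraries) and 36.9% in KO (35.6% to 39.2%). Cldn4 made 7.73% in WT (6.12% to 10.3%) and 15.3% in KO (13.8% to 16.5%). The sum over the members was 216, 234 and 256 TPM in the KO libraries against 173, 186 and 171 in the WT libraries. These shares describe RNA per length and were not tested.

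**Figure D3:**
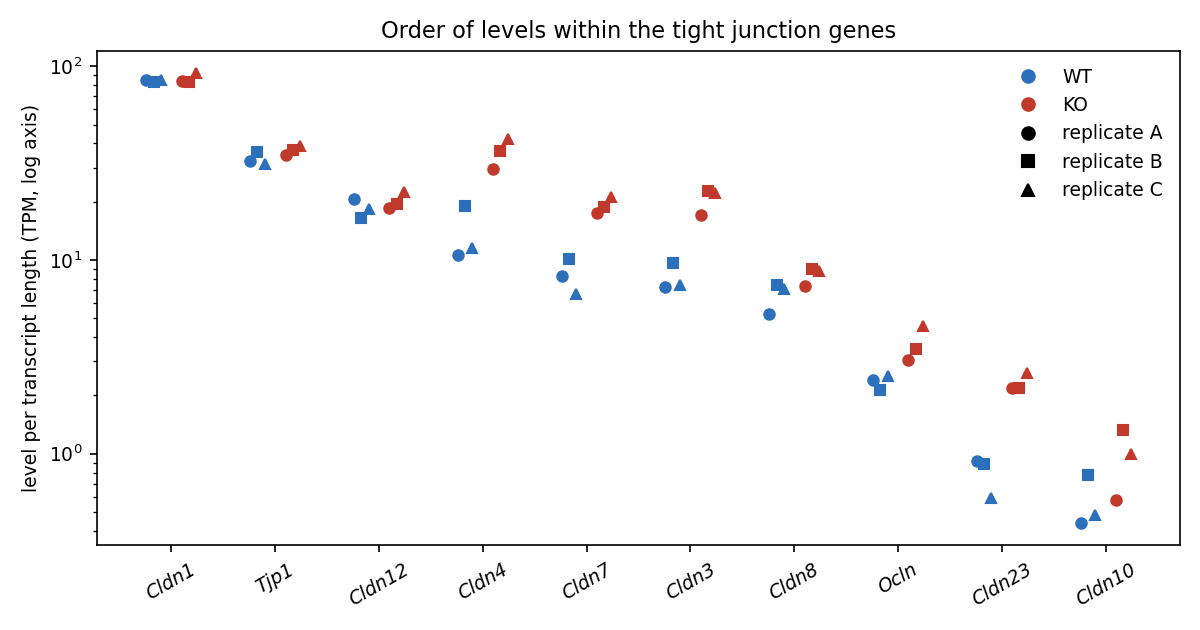
TPM of each member (log axis) by genotype, ordered by the WT mean, with 1 symbol per library. Cldn1 is highest in both genotypes, and Cldn4 at 36.1 TPM in KO reaches the level of Tjp1 at 37.1 TPM.

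Cldn3 and Cldn4 are neighbours on chromosome 5, transcribed away from each other and 39280 bases apart. Within 100 kb of either, 8 other genes were tested. Stx1a, a membrane fusion protein of the syntaxin family, was higher in KO, at 2.54 ± 0.271 CPM against 1.39 ± 0.106 CPM in WT (log2 fold change 0.86, edgeR adjusted p = 0.00537). Stx1a was the 1 gene of the 8 called higher, a share close to the 12.3% of all genes tested. Among all genes tested 10.7% were called lower. None of the 8 was called lower by edgeR, DESeq2 or limma, and 0 had an unadjusted edgeR p below 0.05 in that direction. Mettl27 (log2 fold change 0.24, adjusted p = 0.128), Abhd11 (-0.02, 0.855), Bud23 (0.00, 0.983) and Dnajc30 (-0.10, 0.277) were not called, nor were Abhd11os, Gm43372 and Vps37d. Vps37d (log2 fold change -0.18) crossed the threshold without KO replicate B, at -0.31. The ratio of Cldn4 to Cldn3 in TPM was 1.74, 1.61 and 1.91 against 1.46, 1.96 and 1.56, so the groups overlapped in this ratio.

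**Figure D4:**
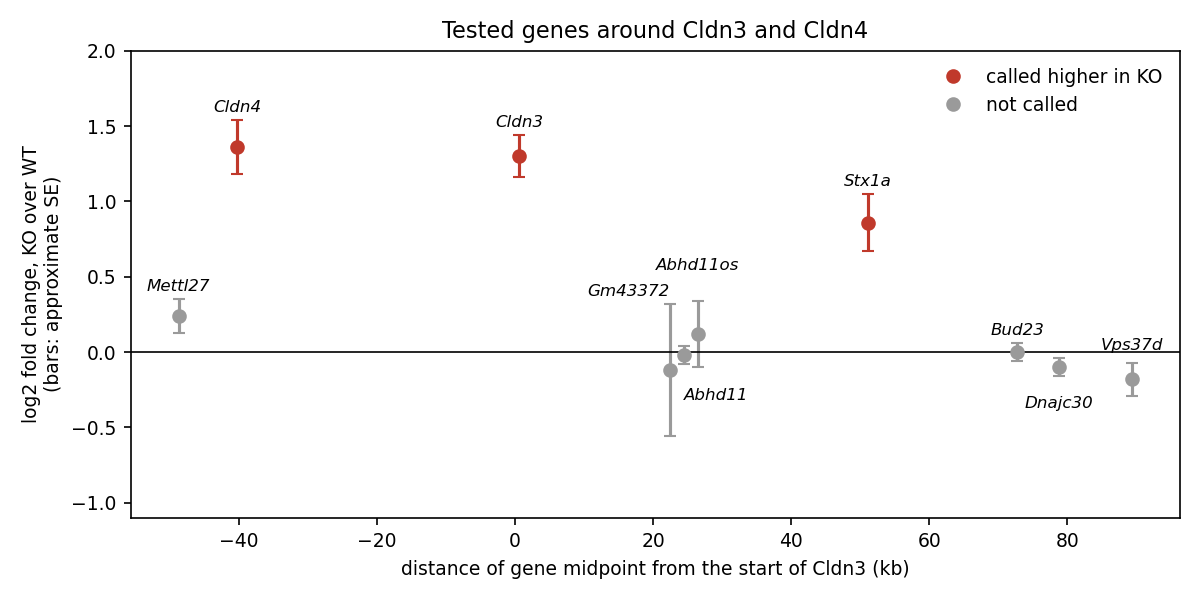
Log2 fold change, KO over WT, of each tested gene near Cldn3 and Cldn4 against the distance of its midpoint from the start of Cldn3 in kb, with bars for the approximate SE. Cldn4 (1.36), Cldn3 (1.30) and Stx1a (0.86) are called higher in KO, and the other genes are not called.

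The genes most like Cldn3 across the 6 libraries were found by the root mean square difference of centred log2(CPM + 0.5) among 11295 genes averaging 5 CPM or more. They were Tspan8, a tetraspanin, at 0.0974, then Cldn7 at 0.103, the keratin Krt23 at 0.103, the aldehyde dehydrogenase Aldh3a1 at 0.115 and the growth factor gene Hbegf at 0.119. For Cldn4 they were Aldh3a1 at 0.114, the matrix protein gene Ecm1 at 0.116, the protease inhibitor gene Serpinb2 at 0.135, the chloride channel gene Ano1 at 0.141 and Tspan8 at 0.156. Cldn7 ranked 6 (0.160) and Cldn3 ranked 7 (0.166) for Cldn4. This is a description over 6 libraries, and genes with a like difference between genotypes rank high by construction.

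Within a genotype, the same library was often the extreme one among the 10 members. The share over all genes was not counted, so these counts describe the members only. KO replicate A was the lowest KO library for 7 of the 10 members (Cldn3, Cldn4, Cldn7, Cldn8, Cldn10, Ocln and Tjp1). KO replicate C was the highest for 6 (Cldn1, Cldn4, Cldn7, Cldn23, Ocln and Tjp1). WT replicate B was the highest WT library for 7 (Cldn3, Cldn4, Cldn7, Cldn8, Cldn10, Cldn23 and Tjp1). The summed levels of 9 lists of cell markers did not share 1 order of libraries. The secretory and ciliated, keratinocyte-like, and dendritic cell and macrophage lists were lowest in KO replicate A and highest in WT replicate B within their groups. The medullary and tuft cell lists were highest in KO replicate A and lowest in WT replicate B, and the thymocyte, endothelial and cortical lists were also highest in KO replicate A. The secretory and ciliated list had 849, 1266 and 942 CPM in the KO libraries against 316, 645 and 433 in the WT libraries, of which Bpifa1, a secreted airway protein, made 594, 979 and 665 against 205, 518 and 309 CPM.

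Several groups of cell markers moved with genotype, and their part in the rise of the claudins was not tested. Of all genes tested, 12.3% were called higher and 10.7% lower. All 13 cortical markers, Psmb11 among them, fell, with a median log2 fold change of -0.51 and sums of 8369 to 9412 CPM in KO against 12883 to 13312 CPM in WT. Of the medullary markers 10 of 13 rose, with sums of 5452 to 5860.0 CPM in KO against 4093 to 4668 CPM in WT. Tuft cell markers rose in 9 of 12 (180.2 to 239 against 118 to 128 CPM), keratinocyte-like markers in 5 of 9 (102 to 109 against 63.1 to 64.9 CPM) and secretory and ciliated markers in 12 of 13, with the sums given above. The lists share some genes. Pou2f3 counts in the medullary and tuft cell lists and Spib in the medullary and the secretory and ciliated lists, and both were called higher. No listed marker was at 0 in every library.

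Non-epithelial markers moved less evenly. Fibroblast and pericyte markers rose in 10 of 12, with sums of 1293 to 1389.8 CPM in KO against 895 to 1008 CPM in WT, and Dcn, a matrix proteoglycan, had 778 ± 32.0 against 607 ± 36.6 CPM. Dendritic cell and macrophage markers rose in 9 of 10 (139 to 154 against 101 to 109 CPM). Thymocyte markers were called higher in 3 of 13 (23.1%) and endothelial markers in 1 of 11 (9.09%), where 12.3% of all genes were. The endothelial share was thus not above that of all genes. Sums overlapped between genotypes, at 65.7 to 118 against 62.5 to 72.6 CPM for thymocyte markers. For endothelial markers they were 27.9 to 72.5 against 22.1 to 53.2 CPM. The counts of 3 and 1 changed with the libraries used, to 1 thymocyte marker without KO replicate A, WT A or WT C, and to 0 endothelial markers without WT A or WT B and 2 without WT C. Without KO replicate A no endothelial marker rose and 1 fell. Thy1, called higher, counts in both the thymocyte list and the fibroblast and pericyte list.

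Among the other claudins, 22 of 24 listed genes were matched in the files, 8 were tested and 1 of these (12.5%) rose, close to the 12.3% of all genes tested, while 6 were at 0 counts in every library (Cldn16, Cldn18, Cldn22, Cldn24, Cldn34b1 and Cldn34d). Cldn2, a claudin that forms a pore for cations and water, had 1.89, 4.04 and 2.63 CPM in the KO libraries against 0.465, 1.78 and 0.563 in the WT libraries. KO replicate A stood just above WT replicate B. The level was 3.05-fold higher in KO (log2 fold change 1.61, SE 0.42, edgeR adjusted p = 0.0160), and the gene lost its call without KO replicate B, WT A or WT C and with DESeq2, limma and a robust fit. Without KO replicate C 2 of the list rose, and without KO replicate A 1 rose and 1 fell. Cldnd1, a distant relative, was the most abundant at 65.3 CPM in KO libraries against 68.6 CPM in WT libraries and was not called (adjusted p = 0.321).

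The other membrane proteins of the tight junction rose in 7 of 13 tested genes, with none lower and a median log2 fold change of 0.56. Of all genes tested, 12.3% were called higher and 10.7% lower. Cxadr, the adhesion receptor used by coxsackie viruses and adenoviruses, had 73.5, 84.4 and 86.5 CPM in the KO libraries against 57.2, 57.2 and 58.3 in the WT libraries (1.41-fold, edgeR adjusted p = 6.61e-05). Marveld2, which encodes tricellulin of the corners where 3 cells meet, was 1.92-fold higher at 4.94 ± 0.240 against 2.56 ± 0.412 CPM (adjusted p = 8.30e-04). Clmp, a relative of Cxadr, was 1.80-fold higher (adjusted p = 0.00180). Lsr, which recruits tricellulin to those corners, was 1.16-fold higher (adjusted p = 0.00186).

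Plaque and polarity proteins, which lie beneath the membrane, were split, with a median of 0.01. Of 27 tested genes 6 rose and 5 fell, where 12.3% and 10.7% of all genes did. Tjp3, the ZO-3 scaffold and a close relative of Tjp1, had 16.2, 17.4 and 20.0 CPM in the KO libraries against 6.82, 8.08 and 8.11 in the WT libraries. It was 2.32-fold higher in KO (log2 fold change 1.22, SE 0.10, edgeR adjusted p = 1.14e-05), with no overlap. The atypical protein kinase gene Prkcz was 2.36-fold higher (adjusted p = 0.00149), and the cingulin relative Cgnl1 1.14-fold higher (adjusted p = 0.00216). Pard6g, a polarity adaptor, was 1.14-fold lower in KO, at 299 ± 13.2 against 342 ± 3.73 CPM (adjusted p = 0.00303). The 11 calls fell to 7 without KO replicate B, WT A or WT C and to 5 without WT B, and to 2 and 3 with limma on TPM. Both limma fits lost the Cgnl1 call, and the fit on log2(TPM + 0.1) lost that of Prkcz (adjusted p = 0.0524).

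**Figure D5:**
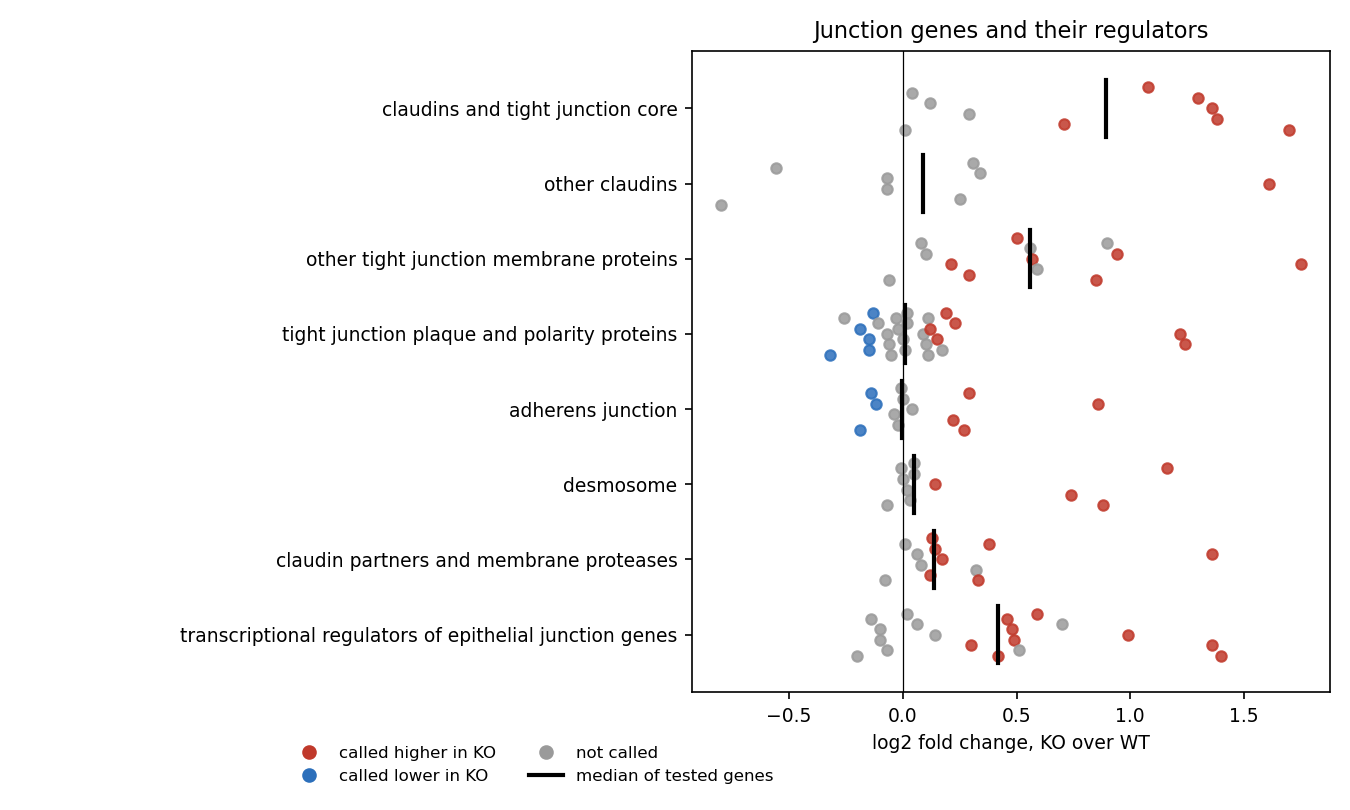
Log2 fold change, KO over WT, of each tested gene in the claudin and tight junction core and in 7 other lists, 1 point per gene, with a bar at each list's median. The median is 0.89 for the core and 0.56 for the other tight junction membrane proteins, and close to 0 for plaque, adherens junction and desmosome genes.

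In the adherens junction, the belt below the tight junction, 4 of 12 genes rose and 3 fell (median -0.01). Among all genes tested 12.3% rose and 10.7% fell. Cdh1, which encodes E-cadherin, had 877 CPM in KO libraries against 879 CPM in WT libraries (adjusted p = 0.948). Nectin4, an adhesion receptor, was 1.82-fold higher at 17.6 ± 0.476 against 9.69 ± 0.212 CPM (edgeR adjusted p = 1.19e-05). Nectin2 and Nectin3 were 1.23-fold and 1.2-fold higher and Afdn, which links nectins to actin, 1.17-fold higher. The 7 calls in this list fell to 3 with limma on TPM, Afdn and Nectin3 being among those lost.

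In the desmosome, the spot-like junction tied to keratins, 4 of 11 tested genes rose and none fell (median 0.05). Among all genes tested 12.3% rose and 10.7% fell. The cadherin Dsg1a had 10.3, 8.52 and 8.34 CPM in the KO libraries against 4.79, 3.79 and 3.61 in the WT libraries, a 2.24-fold higher level (edgeR adjusted p = 1.07e-04). Dsg3 was 1.84-fold, Pkp2 1.67-fold and Dsg2 1.10-fold higher. The Dsg3 and Pkp2 calls were lost with limma.

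Partners of claudins and membrane proteases that act on them rose in 7 of 12 genes, with none lower (median 0.14). Among all genes tested 12.3% rose and 10.7% fell. Tspan8 was 2.57-fold higher at 9.75 ± 1.55 against 3.78 ± 0.902 CPM (edgeR adjusted p = 1.45e-04). St14, the protease matriptase, was 1.31-fold higher at 133 ± 7.05 against 102 ± 1.43 CPM (adjusted p = 5.83e-05). Epcam, the partner of Cldn7, was 1.10-fold higher at 399 against 362 CPM (adjusted p = 0.0112), a call lost without WT replicate B (adjusted p = 0.0510). The 7 calls became 4 without KO replicate B or WT A and 3 without WT B.

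The listed regulators of epithelial junction genes, most of them transcription factors, rose in 9 of 19 tested genes, with none lower (median 0.42). They included activators and repressors. Among all genes tested 12.3% rose and 10.7% fell. In this list 1 gene was called lower without KO replicate B, without KO replicate C and with no filter on low counts. Ehf, an Ets factor of epithelia, had 51.4, 52.9 and 54.6 CPM in the KO libraries against 24.3, 27.3 and 28.2 in the WT libraries (1.99-fold, edgeR adjusted p = 9.84e-07). Grhl3 was 2.64-fold higher at 5.38 ± 0.192 against 2.02 ± 0.308 CPM (adjusted p = 5.25e-05), Grhl1 1.50-fold higher (adjusted p = 3.22e-05) and the Ets factor Elf3 1.39-fold higher (adjusted p = 1.05e-04). Grhl2, the most abundant Grainyhead-like factor at 155 CPM in KO libraries against 163 CPM in WT libraries, was not called (adjusted p = 0.183). Zeb2, a repressor that reads the E-box printed above, was 2.57-fold higher at 14.8 ± 0.794 against 5.71 ± 1.91 CPM (adjusted p = 1.54e-04), and Snai2 was not called. Grhl1 is also in the keratinocyte-like marker list.

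Over the 7 lists together, 46 of 102 tested genes were called (45.1%), 38 of them higher and 8 lower, where 23.0% of all genes tested were called. With limma on TPM the count was 28 or 29. In the membrane protein, desmosome and partner lists, where edgeR called none lower, 0 genes were lower at an unadjusted p below 0.05, and in the regulator list 1 was. DESeq2 and limma called none of these lower.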

How the data were processed

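Polyadenylated RNA of 6 cTEC libraries was analysed; the medullary cells and thymocytes named in the series title were not analysed here. Per the submitters' processing notes, bcl2fastq 2.17, STAR 2.5.1b and RSEM 1.2.28 were used. The notes name build GRCh38, a human build, while the identifiers are mouse ones, so the alignment build is uncertain. Symbols and positions came from GENCODE M21 (GRCm38), which matched 50376 of 50600 identifiers (99.56%). The deposited raw counts per gene come in several strand settings, of which the opposite-strand one was used. Rows that name no gene took 18.43% to 19.81% of reads and were left out. The deposited RSEM expected counts were rounded to whole numbers and used in an alternative. The deposited TPM values, by RSEM, were used for levels between genes and in limma alternatives.

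KO and WT were compared with edgeR 4.0.16 (quasi-likelihood test, TMM, filterByExpr, no block, Benjamini-Hochberg over all 16938 genes tested, threshold 0.05) in R 4.3.3. TMM factors were 0.9937 to 1.012 and the common biological coefficient of variation 0.0538. Between libraries of a genotype, the variance of counts was 4.28 to 7.40 times that of counting alone. Counting error alone is a limit for genes with few reads, such as Cldn10. The fit was tested on simulated data. The SE is the log2 fold change divided by the square root of the F statistic.

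The members, the lists and the tests were chosen with earlier results of these data known. Named genes were all 10 members, up to 4 called genes of each junction or regulator list by increasing p (where fewer than 2 were called, up to 2 others with the highest CPM), up to 2 genes of each marker list by CPM, Psmb11, tested neighbours of Cldn3 and Cldn4 within 100 kb, and the 5 genes most like each. Cdh1, Grhl2, Snai1, Snai2, Zeb1, Zeb2, Pou2f3 and Spib were named after their values were seen. One gene that this rule names is not reported here. Alternatives were RLE and upper quartile scaling, DESeq2 1.42.0, RSEM expected counts, no filter, only genes averaging 5 CPM or more, limma 3.58.1 on log2(TPM + 0.1) and log2(TPM + 1), unstranded counts, a replicate block, and leaving out each library. A robust edgeR fit, and the counts for each list under every alternative, were added after seeing the data. Figures were drawn with matplotlib 3.10.9.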

Additional observations from a re-analysis of the deposited data

How the results depend on the processing

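Of all genes, 3899 were called, and 2629 to 3451 when 1 library was left out. With limma the counts were 1857 on log2(TPM + 0.1) and 1927 on log2(TPM + 1), with 60.3% and 60.7% of calls higher against 53.3%, and 28 and 29 of the 46 calls over the 7 junction lists. Leaving out 1 library gave 36 to 48 calls over those lists and 5 to 7 called members. Medullary markers went from 10 calls to 6, tuft cell markers from 9 to 5 and dendritic cell and macrophage markers from 9 to 5 with limma. The cause of the lower limma counts was not tested. Cldn1, called under no alternative, had log2 fold changes of -0.001 with no filter and -0.043 to 0.036 when 1 library was left out (-0.043 for KO replicate C, -0.009 for WT replicate B). Cldn10 was also lost with RSEM expected counts (adjusted p = 0.0578), unstranded counts (0.0692) and limma (0.269 and 0.261), and Cldn10, Cldn23 and Ocln were not tested among genes averaging 5 CPM or more, which left 4 called members. No alternative moved the median of all genes by more than 0.030 log2 units, the value for limma on log2(TPM + 0.1). RLE and upper quartile scaling moved it by 0.003 and 0.010.

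Libraries of the 2 genotypes share replicate letters, but deviations of the same letter were hardly correlated (-0.016, 0.082 and -0.034 for A, B and C), and KO A and KO C correlated best with another letter. With a replicate block 3807 genes, 7 members and 45 genes of the junction lists were called; Cldn8 was the member gained (log2 fold change 0.297, adjusted p = 0.0470).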
